A study of Mus musculus with 2 samples.

Results

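The imprinted Dlk1-Dio3 region of mouse chromosome 12 carries a dense array of microRNA genes, and the reads of that array were examined in gastrocnemius, the large calf muscle. The array was defined by position alone: every gene annotated as a microRNA in GENCODE M21 (mm10) on the plus strand of chromosome 12 with a start between positions 109.5 and 109.8 Mb. This gave 59 loci of the 2202 microRNA genes counted, and all 59 had a row in the count data. The 2 libraries formed 1 group, made from total RNA of adult male mice aged 8 to 10 months and labelled with the strain name 5xFAD/CAST. 5xFAD mice are transgenic and model amyloid deposition in brain. CAST mice are an inbred strain derived from the wild. Whether the animals carried the transgene is not given in the labels. Both libraries are linked to 1 donor record under separate tissue records, and separate animals are not stated, and p-values below measure no more than the difference between these samples, which may be technical.

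MicroRNAs are short RNAs cut from hairpin precursors. Each hairpin can give a mature RNA from its 5′ arm (5p) and from its 3′ arm (3p), and the seed, bases 2 to 8 of the mature RNA, does most of the pairing with target messages. At Dlk1-Dio3 the noncoding RNA genes Meg3, Rian and Mirg and the microRNAs are expressed from the chromosome inherited from the mother, and the protein-coding genes Dlk1, Rtl1 and Dio3 from the one inherited from the father. The microRNAs are known for high levels in embryo, placenta and adult brain, and in skeletal muscle they have been studied mostly in muscle stem cells and in regeneration.

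The loci lay in 2 dense groups. Chaining loci whose starts were at most 10 kb apart placed 14 loci from Mir770 to Mir136 (chr12:109563692-109595388, 31.7 kb) in the proximal group, which holds Mir127 and Mir433. It placed 39 loci from Mir379 to Mir3072 (chr12:109709060-109747960, 38.9 kb) in the distal group, which holds Mir379 and Mir410. The groups were 114 kb apart, and the other 6 loci (Mir1906-1, Mir341, Mir1188, Gm23912, Mir370 and Mir882) belonged to neither. Distal loci were packed more tightly, with a median of 556 bases between neighbours against 1177 in the proximal group.

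The mature sequences below belong to the 3 most abundant loci, Mir127, Mir411 and Mir379, and to Mir433, the other locus that names the proximal group. They are RefSeq sequences on GRCm38.p6, the assembly also called mm10, written 5′ to 3′ with the seed in capitals. RefSeq held mature sequences for 57 of the 59 loci, 106 in all, and none was matched for Gm23912 and Gm27379.
mmu-miR-127-5p: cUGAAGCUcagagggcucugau
mmu-miR-127-3p: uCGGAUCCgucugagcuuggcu
mmu-miR-433-5p: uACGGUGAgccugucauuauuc
mmu-miR-433-3p: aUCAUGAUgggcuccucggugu
mmu-miR-379-5p: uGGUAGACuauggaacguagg
mmu-miR-379-3p: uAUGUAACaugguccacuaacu
mmu-miR-411-5p: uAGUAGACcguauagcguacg
mmu-miR-411-3p: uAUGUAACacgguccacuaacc
mmu-miR-1193-5p: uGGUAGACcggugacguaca

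Mir379 and Mir411, neighbours at the start of the distal group, carry closely related RNAs. Their 3p arms were identical at 20 of 22 positions counted from the 5′ end, differing at U10C and U22C (miR-379 base first), and shared the seed AUGUAAC. Their 5p arms were identical at 14 of 21 positions, and the difference G2A fell inside the seed. The 5p arm of Mir1193 is shown because it has the same seed as miR-379-5p, GGUAGAC, while only 10 of 20 positions were identical. The files count reads per hairpin gene, so the arms could not be measured separately, and a level below is the sum of both arms.

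Reads counted on the gene's strand totalled 1157420 in replicate 1 and 1193393 in replicate 2, and levels are given as CPM, counts scaled to a common total of these reads. CPM was not divided by hairpin length, because each read covers a mature RNA and not the length of the hairpin. All reads numbered 6119818 and 6632802, of which 60.2% and 63.2% aligned to several places and entered no gene. The labelled tissue was checked with Mir206, a microRNA of skeletal muscle, which had 38135 and 39300 reads. Of the other skeletal muscle loci listed, Mir486 had 5963 and 4423 reads, Mir499 441 and 555, and Mir208b 120 and 170. Mir1a-2 had only 60 and 54 reads, Mir133b 27 and 10, Mir133a-1 24 and 6, Mir1a-1 14 and 9, and Mir133a-2 5 and 0. Summed over marker lists, skeletal muscle loci held 38697 and 37311 CPM, the endothelial marker Mir126a 80768 and 137673 CPM, smooth muscle 50799 and 42140 CPM, fibroblasts 2719 and 2177 CPM, leukocytes 3182 and 2252 CPM, and erythroid cells 163 and 153 CPM. The fibroblast sum was almost all Mir214 (2701 and 2164 CPM). Mir199a-1 had 1 and 0 reads, Mir199a-2 8 and 3, and Mir199b 12 and 12. The erythroid loci went opposite ways, with 180 and 117 reads for Mir451a and 9 and 65 for Mir144. Of the leukocyte loci, Mir155 had 1965 and 1557 reads, Mir150 1560 and 994, Mir223 88 and 56, and Mir142 70 and 81. Of the smooth muscle loci, Mir143 had 56272 and 48711 reads and Mir145a 2524 and 1579. Nerve and brain loci held 336 and 466 CPM, of which Mir128-1 alone held 295 and 420 CPM. Of these 8 loci 5, the 3 Mir124a loci, Mir9-2 and Mir9-3, had no read. Reads that align to several places enter no gene, which can lower families with several loci, such as Mir124a, Mir9, Mir1a and Mir133a. Loci without reads therefore cannot be called absent, and the sums do not rank the cell types. The part of these other cell types in the levels below was not tested.

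The 59 loci together had 3141 reads in replicate 1 and 2458 in replicate 2, or 2714 and 2060 CPM. They took 0.271% of the reads in replicate 1 (95% exact Clopper-Pearson interval 0.262 to 0.281) and 0.206% in replicate 2 (0.198 to 0.214), with a mean of 0.239% ± 0.0463 (SD, n = 2). Replicate 1 was thus the higher library and the intervals did not overlap. After scaling with TMM factors, which were 1.11 and 0.899, the sum was 1.07-fold higher in replicate 1 (1.01 to 1.12), against 1.32-fold before scaling. The intervals cover counting error only, since PCR copies of a molecule cannot be recognised without molecular identifiers. In whole muscle, fewer cells that make a microRNA and less of it per cell cannot be told apart.

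The limit of detection was set at 2 CPM in each library. By this rule 30 of the 59 loci were detected, 50.8%, beside 14.6% of all 2202 microRNA genes (321 genes) and 13.6% of the 2143 genes outside the array. Of the other 29 loci, 10 had reads in both libraries but were below that level in at least 1. A further 6 had reads in 1 library only, and 13 had none. At 10 CPM in each library 19 loci were left. The detected loci were of moderate level. Their median was 26.4 CPM, beside 48.5 CPM for all 321 detected genes, and 4 loci reached a mean of 100 CPM. Their order was alike in the libraries, with a Pearson r of 0.93 on log2(CPM + 1) and a Spearman rho of 0.895 across the 30 loci, given as a description since the loci share libraries.

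**Figure D1:**
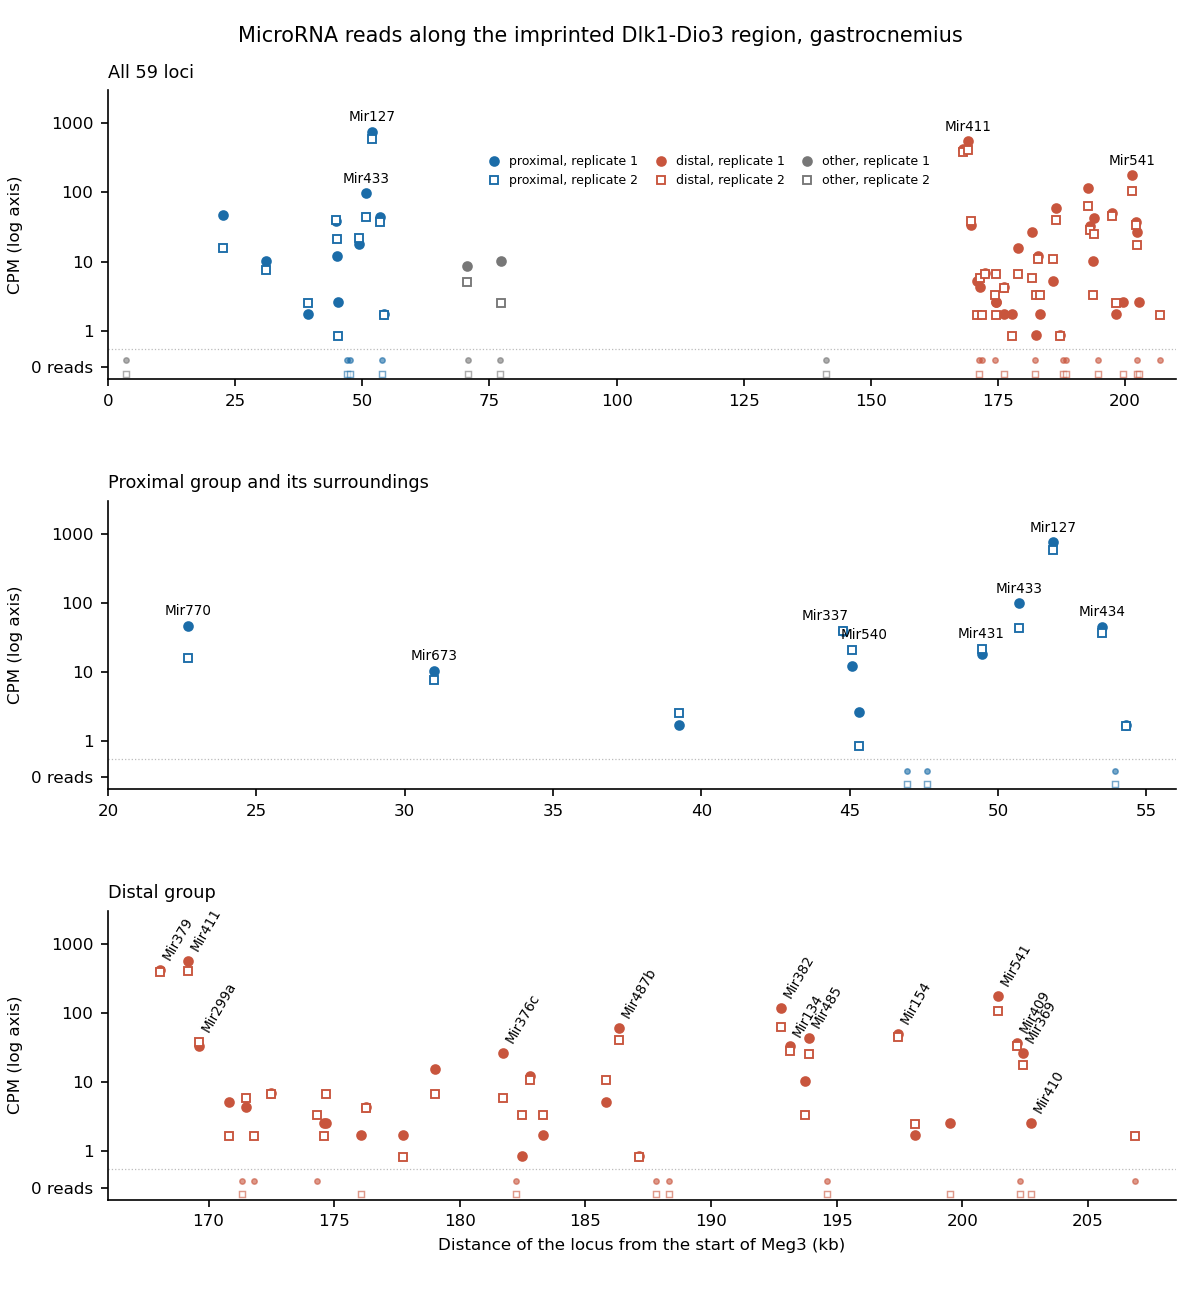
Level of each of the 59 loci (CPM, log axis, with a separate band for 0 reads) against the distance of its start from the start of Meg3 in kb, for the whole array and for each group; filled circles are replicate 1 and open squares replicate 2. The high loci are Mir127 in the proximal group, Mir379 and Mir411 at the start of the distal group, and Mir541 and Mir382 in its second part.

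Mir127 led the array. Its locus (ENSMUSG00000070076.2, chr12:109592846-109592915) lies opposite an exon of Rtl1, the message that miR-127 is known to cleave, and miR-127 has also been studied in muscle stem cell differentiation. It had 870 reads in replicate 1 and 701 in replicate 2, or 752 and 587 CPM, a mean of 669.5 ± 116 (SD, n = 2). That placed it 64th among all 2202 genes, at 25.3 times the median detected locus of the array. Its TMM-scaled ratio of replicate 2 over replicate 1 was 0.966 (0.874 to 1.07), so the libraries did not differ past the counting error after scaling (exact binomial test, adjusted p = 0.68).

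Mir411 and Mir379 followed. Mir411 (ENSMUSG00000065477.3, chr12:109710175-109710256) had 644 and 484 reads, or 556 and 406 CPM, a mean of 481 ± 107. Mir379 (ENSMUSG00000065498.4, chr12:109709060-109709125) had 491 and 463 reads, or 424 and 388 CPM, a mean of 406 ± 25.6. In both libraries Mir127 stood above Mir411, by 1.35-fold (1.22 to 1.498) in replicate 1 and 1.45-fold (1.29 to 1.63) in replicate 2. The order of Mir411 and Mir379 was less clear. Mir411 was 1.31-fold higher in replicate 1 (1.16 to 1.48), but in replicate 2 the ratio was 1.05 and its interval, 0.918 to 1.19, included 1. Neither locus differed between libraries past the threshold, with adjusted p = 0.18 for Mir411 and 0.14 for Mir379 in the exact binomial test. The pair, which share the seed of their 3p arms, summed to 1135 and 947 reads. Mir1193, which shares the 5p seed of Mir379, had 3 and 8 reads.

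These 3 loci held most of the array's reads. Mir127 took 27.7% and 28.5% of them, Mir411 20.5% and 19.7%, and Mir379 15.6% and 18.8%, together 65.4% ± 2.27 (SD, n = 2). It took 14 loci to reach 90% of the reads and 19 to reach 95%, counted over both libraries.

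**Figure D2:**
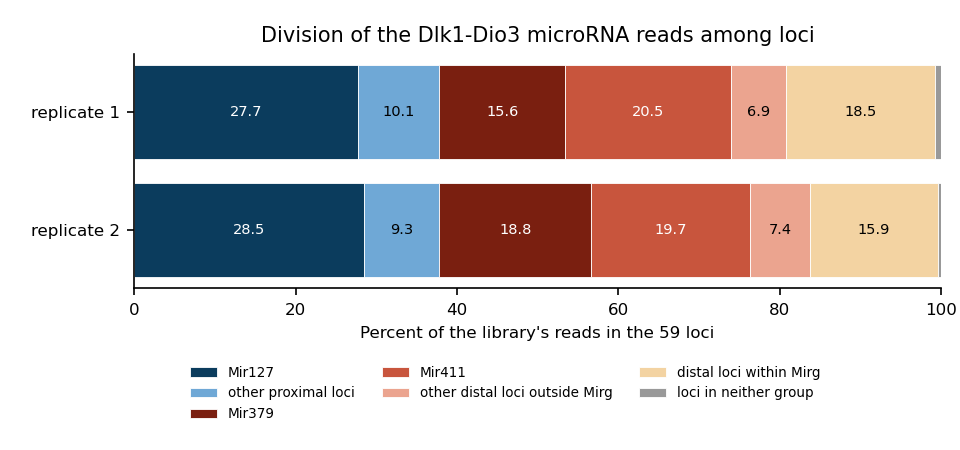
Percent of each library's reads in the 59 loci that fell on Mir127, the other proximal loci, Mir379, Mir411, the other distal loci outside Mirg, the distal loci within Mirg, and loci in neither group. The divisions lie close together in the 2 libraries, and the reads within Mirg went from 18.5% in replicate 1 to 15.9% in replicate 2.

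The distal group had more reads than the proximal group in both libraries. The proximal loci summed to 1188 and 929 reads (1026 and 778 CPM) and the distal loci to 1931 and 1520 reads (1668 and 1274 CPM). The ratio of proximal to distal reads was 0.615 (0.572 to 0.662) in replicate 1 and 0.611 (0.563 to 0.664) in replicate 2, a mean of 0.613 ± 0.00286 (SD, n = 2). The difference between the libraries in this ratio was far inside the counting intervals. The proximal group took 37.8% of the array's reads in each library.

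The sums did not give the order of a typical locus. The median over all loci of a group, those without reads included, was 12.7 CPM for the 14 proximal and 4.25 CPM for the 39 distal loci, so the proximal group was higher by that measure. In the proximal group 8 of 14 loci were detected and 3 had no read; in the distal group 20 of 39 were detected and 6 had no read. Without Mir127, Mir379 and Mir411 the ratio of the sums was 0.399 (0.350 to 0.456) and 0.398 (0.340 to 0.465). Its mean was 0.978 without the loci whose hairpins share a stretch with another gene. Mir411 is among those loci, and its 644 and 484 reads were most of the reads left out. Mir410 (chr12:109743715-109743795), the other locus that names the distal group, had 3 reads and 0 reads, and a count of 0 in replicate 2 allows up to 2.51 CPM.

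Among the proximal loci, 6 lie opposite an exon of Rtl1: Mir431, Mir433, Mir127, Mir434, Mir432 and Mir136. Transcribed from the maternal chromosome, microRNAs of this kind match the Rtl1 message exactly, and several are known to repress it. They held 33.7% and 33.6% of the array's reads, and 5.99% and 5.04% without Mir127. Mir433 (ENSMUSG00000070072.1, chr12:109591715-109591838) had 113 reads in replicate 1 and 52 in replicate 2, or 97.6 and 43.6 CPM, a mean of 70.6 ± 38.2. Mir434 had 52 and 44 reads, a mean of 40.9 ± 5.70 CPM. Mir127 was 7.70 times Mir433 (6.32 to 9.45) in replicate 1 and 13.5 times (10.2 to 18.2) in replicate 2, intervals that cover counting error only. Against Mir434 the ratio of Mir127 was 16.7 (12.6 to 22.6) and 15.9 (11.7 to 22.1), with overlapping intervals. Mir431 had 21 and 26 reads, Mir136 had 2 and 2, and Mir432 none.

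The remaining proximal loci ran from Mir770, which overlaps Meg3, to the loci just before Mir431. Mir770 had 54 and 19 reads, or 46.7 and 15.9 CPM, a mean of 31.3 ± 21.7. Mir337 had 45 and 47 reads, a mean of 39.1 ± 0.356 CPM, and a TMM-scaled ratio of replicate 2 over replicate 1 of 1.253 (0.815 to 1.93). Mir540 had 14 and 25 reads, Mir673 12 and 9, Mir493 2 and 3, and Mir665 3 and 1, while Mir3070a and Mir3070b had none. Loci beyond the 15 most abundant, the 5 past the test below and Mir1193 are given so that every locus is accounted for, and were added with their values seen.

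In the distal group, 14 loci from Mir382 to Mir3072 lie within the annotated Mirg gene, and 8 of these were detected. They held 18.5% and 15.9% of the array's reads, led by Mir541 and Mir382. The mature sequences of both are given because these loci follow the leading 3 and differed between the libraries, with the seed again in capitals.
mmu-miR-541-5p: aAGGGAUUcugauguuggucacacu
mmu-miR-541-3p: uGGCGAACacagaauccauacu
mmu-miR-382-5p: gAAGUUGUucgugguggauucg
mmu-miR-382-3p: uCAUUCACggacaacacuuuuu

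Mir541 (chr12:109742409-109742498, in a Mirg intron) had 205 and 127 reads, or 177 and 106 CPM, a mean of 142 ± 49.99. Mir382 (chr12:109733771-109733846, in a Mirg exon) had 135 and 75 reads, or 117 and 62.8 CPM, a mean of 89.7 ± 38.0. Both were lower in replicate 2, and Mir382 stayed below Mir541 in each library, at 0.659 (0.526 to 0.822) and 0.591 (0.438 to 0.792) of its reads. Mir382 and Mir433 were not separated in order, with a ratio of 1.19 (0.924 to 1.55) and 1.44 (0.999 to 2.10).

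Mir154 (58 and 54 reads), Mir485 (50 and 30), Mir409 (43 and 40) and Mir134 (38 and 34) formed a middle tier within Mirg, with mean levels of 30.7 to 47.7 CPM. Mir134 is known for its role in the dendritic spines of neurons. The counting intervals of these 4 loci overlapped in each library, as the plot of levels by library shows. Below them were Mir369 (31 and 21 reads), Mir668 (12 and 4), Mir496a (2 and 3), Mir377 (3 and 0), Mir410 and Mir3072 (0 and 2), and Mir453 and Mir412 had no read.

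The 25 distal loci before Mirg were uneven. Mir379 and Mir411 held 36.1% and 38.5% of the array's reads, and the other 23 loci held 6.88% and 7.45%. Mir487b had 70 and 48 reads, a mean of 50.4 ± 14.3 CPM, and Mir299a had 39 and 46 reads, a mean of 36.1 ± 3.43 CPM. The others were lower. Mir667 had 18 and 8 reads, Mir381 6 and 13, Mir329 8 and 8, Mir323 5 and 7, Mir543 5 and 5, Mir380 6 and 2, Mir300 2 and 4, Mir679 3 and 2, Mir495 2 and 1, and Mir539 1 and 1. Mir494 had 0 and 4 reads, Mir758 0 and 2, and Mir666 2 and 0, and no read fell on Mir1197, Mir654, Gm27379 and Mir544.

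The miR-376 loci, whose hairpins are known for adenosine-to-inosine editing in brain, differed among themselves. Mir376c (chr12:109722718-109722803) had 31 and 7 reads, or 26.8 and 5.87 CPM, a mean of 16.3 ± 14.8. Mir376a had 14 and 13 reads and Mir376b 1 and 4. The 5p arms of Mir376c and Mir376b are set side by side because they share a seed and differ at 1 of 22 positions, U19G (Mir376c base first).
mmu-miR-376c-5p: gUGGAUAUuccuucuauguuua
mmu-miR-376b-5p: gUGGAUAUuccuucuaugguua
The hairpins of Mir376c and Mir376b also share a run of 31 bases, and those of Mir411 and Mir758 a run of 21. A read that lies wholly inside such a run aligns to both loci and is counted for neither. In all, 8 loci of the array had at least 20 consecutive bases in common with the hairpin of another gene. They held 23.8% and 22.2% of the array's reads, mostly those of Mir411 (644 and 484). The run of Mir411 holds only the end of miR-411-3p and none of miR-411-5p, so a full-length mature read does not lie wholly inside it. The run of Mir376c ends before U19G, so a full-length 5p read does not either. Shorter reads and reads with mismatches were not examined, so these levels remain uncertain.

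**Figure D3:**
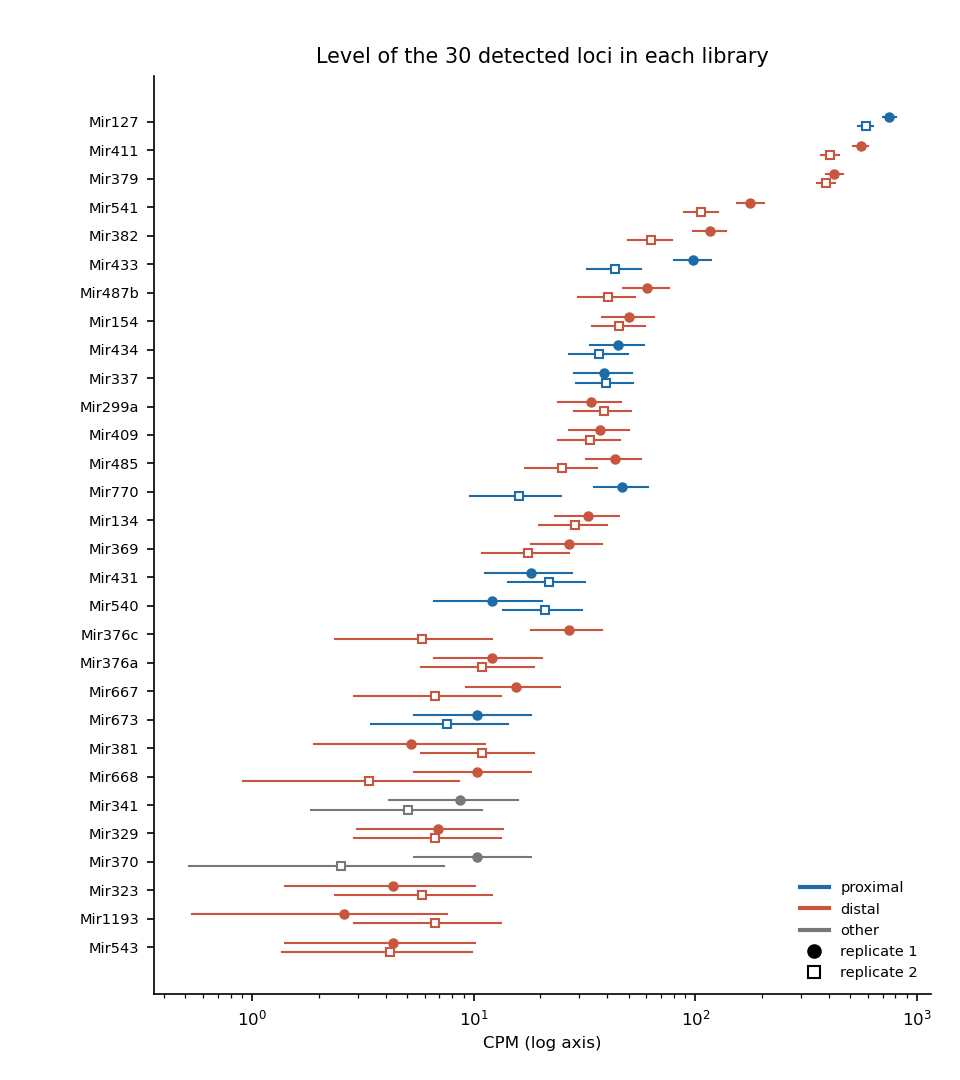
Level of the 30 detected loci in each library (CPM, log axis), ordered by mean; circles are replicate 1, squares replicate 2, bars the exact 95% Poisson interval of the count, and colours the group. The bars of Mir127, Mir411, Mir541, Mir382, Mir433, Mir770 and Mir376c do not overlap between the libraries before TMM scaling.

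Of the loci in neither group, the 4 inside Rian were low. Mir341 had 10 and 6 reads and Mir370 12 and 3, both detected, while Mir1188 and Gm23912 had none. Mir1906-1, which overlaps Meg3, and Mir882 also had none. Mir1906-1 shares a run of 80 bases with Mir1906-2 elsewhere, so its reads would align to several places.

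The libraries were then compared locus by locus with a two-sided exact binomial test of replicate 2 against replicate 1, given the TMM-scaled depths, with Benjamini-Hochberg adjustment over the 321 detected genes. It compares 2 libraries of 1 group against counting error, and no condition. Of the 30 detected loci, 5 were lower in replicate 2 and 0 were higher. Over all detected genes 18.7% were lower and 18.7% were higher (60 of 321 each). An unadjusted p under 0.05 was found for 6 of the 30 loci, beside 42.4% of all detected genes (136 of 321). The share of the array called lower, 16.7%, was near the 18.7% of all detected genes. The share called higher, 0 of 30, was below the 18.7% of all detected genes, a difference that was not tested.

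Mir376c was 3.69-fold higher in replicate 1 (1.60 to 9.93, adjusted p = 0.0028 in the exact binomial test). Mir770 was 2.37-fold higher (1.38 to 4.23, adjusted p = 0.0028), Mir433 1.81-fold (1.29 to 2.57, adjusted p = 0.0011), Mir382 1.5-fold (1.12 to 2.02, adjusted p = 0.0133) and Mir541 1.35-fold (1.07 to 1.69, adjusted p = 0.0228), all in the same exact binomial test. The 5 loci came from both groups, 2 proximal and 3 distal. Mir540 had the opposite direction, with a ratio of replicate 2 over replicate 1 of 2.14 (1.07 to 4.46), and did not pass (exact binomial test, adjusted p = 0.062). With edgeR's exact test at the common dispersion, a coefficient of variation of 33.8% estimated from these libraries, none of the 30 loci passed. None had an unadjusted p under 0.05, beside 11 of all 321 detected genes. After adjustment 1.56% of all detected genes were called (5 of 321). That dispersion already holds the difference between the same 2 libraries, so few calls follow from its use and the test cannot decide whether the loci differ. With total counts in place of TMM scaling 9 of the 30 loci passed, all lower in replicate 2 and Mir127 and Mir411 among them, beside 35.5% of all detected genes lower (114 of 321) and a shift of the median log2 ratio of all genes to -0.30.

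After scaling, the ratios of the array lay evenly around 1. Ratios below 1 and above 1 were equally common, 15 loci each, and the median log2 ratio was -0.01, beside -0.01 over all 321 genes. The interval included 1 at 24 of the 30 loci. Of the 30, 63.3% lay within 1.5-fold between the libraries, beside 63.9% of all detected genes. At mean levels of 10 to 100 CPM, 4 of 17 loci of the array were called, 23.5%, beside 27 of 106 other genes, 25.5%, and at 2 to 10 CPM 0 of 9 beside 3 of 61. At mean levels of at least 100 CPM and below 1000 CPM, 1 of 4 loci was called beside 37 of 67 other genes, 55.2%.

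**Figure D4:**
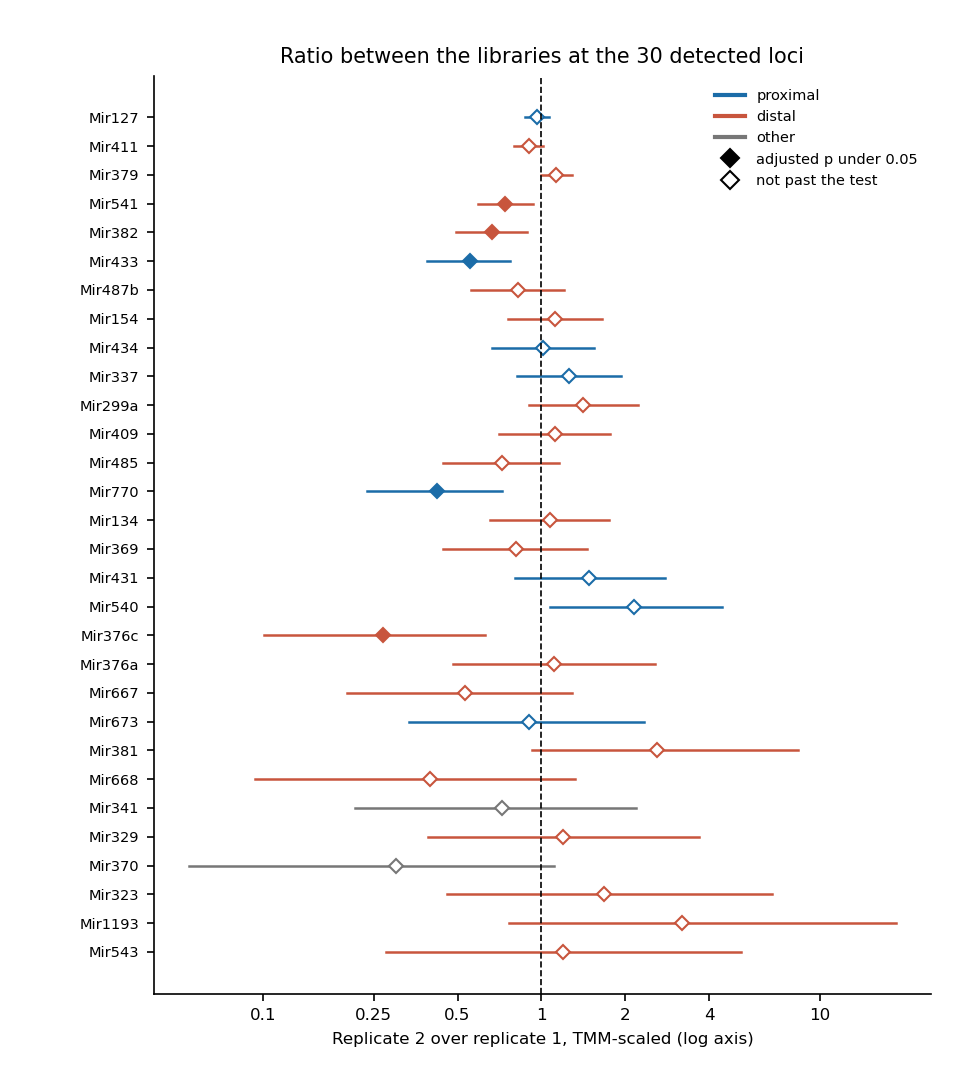
TMM-scaled ratio of replicate 2 over replicate 1 (log axis) with its exact 95% interval for the 30 detected loci, ordered by mean level; filled diamonds passed the exact binomial test at an adjusted p under 0.05. The 5 filled points all lie below 1, and the intervals widen toward the low loci at the bottom.

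No read was counted in the column taken as the opposite strand for any of the 59 loci in either library. The 7 microRNA genes annotated on the minus strand of the same region, each of which overlaps a member (Mir337, Mir136, Mir299a, Mir380, Mir376a, Mir539 and Mir409), had 0 reads in the column taken as their own strand as well. The nearest microRNA gene before the array, Mir345, 0.663 Mb away and outside it, had 54 and 66 reads.

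Levels of 5 other imprinted microRNA genes are given for comparison. Mir335, in the imprinted Mest gene, had 197 and 158 reads, a mean of 151 ± 26.7 CPM, close to the mean of Mir541. Mir483, in Igf2, had 111 and 102 reads, a mean of 90.7 ± 7.38 CPM, close to the mean of Mir382. The likeness held for the means only. Mir335 had 170 and 132 CPM beside 177 and 106 for Mir541. Mir483 had 95.9 and 85.5 CPM beside 117 and 62.8 for Mir382. Mir298 had 17 and 5 reads, Mir296 10 and 6, and Mir675, made from the noncoding RNA H19, 3 and 2. Of these 5 genes 4 were detected, and none passed the exact binomial test between the libraries.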

How the data were processed

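MicroRNA-seq libraries were made from gastrocnemius RNA in the size range below 30 bases, per the labels, and the authors deposited raw read counts per microRNA gene, 1 table per library, in mm10. The aligner and counter were not given in the sources used here. mm10 represents a strain other than CAST, and the effect of this on alignment was not tested. The deposited files name no columns. Column 3 was taken as the count on the gene's strand and column 4 as the opposite strand, from the layout and because column 3 places far more reads in microRNA genes; reads with several alignments enter no gene. The loci and lists were chosen with earlier results of these data known. Genes named in full were the loci naming the groups, the 15 with the highest mean CPM, those past the library test, loci sharing a seed with those 15, and 5 other imprinted genes.

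CPM, detection at 2 CPM, exact intervals at 95% and log2 ratios with a pseudocount of 1 CPM were computed with Python 3.11.15 and scipy 1.17.1. TMM factors over detected genes came from edgeR 4.0.16 in R 4.3.3, and DESeq2 1.42.0 gave alternative size factors. edgeR's quasi-likelihood test needs residual degrees of freedom, which 1 library on each side lacks, so the exact binomial test at an adjusted p of 0.05 was used. It was tested on simulated data. The simulated counts held sampling noise only, so they do not give the error rate of the test for libraries that differ beyond it. Over detected genes the libraries differed far beyond sampling noise (chi-square 93784 on 320 degrees of freedom) and were kept as 2. A read was worth 0.864 CPM in replicate 1 and 0.838 in replicate 2.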

Additional observations from a re-analysis of the deposited data

How the results depend on the processing

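The share of reads in the array, 0.239%, was 0.321% with the counts of both strands together, which leave out the 325180 and 375109 reads over overlapping genes, and 0.288% with the most abundant gene left out of the denominator. It was 0.247% without the loci with a shared stretch of 20 bases, and 0.206% to 0.271% without either replicate. The ratio of proximal to distal reads, 0.613, was 0.622 with both strands, 0.622 with groups chained at gaps of 20 kb, 0.622 with every locus before Mir379 taken as proximal, and 0.611 to 0.615 without either replicate. It rose to 0.978 without loci sharing a run, which removes Mir411, and to 2.99 for medians over loci, and it was 0.399 without Mir127, Mir379 and Mir411, an alternative chosen after seeing the data. Detected loci numbered 19 at 10 CPM, 40 at 1 read in both libraries and 30 with both strands. The 30 with both strands were not the same loci. Mir337, Mir299a, Mir376a and Mir409, which overlap a minus-strand gene, had 0 reads there, and other loci took their place.

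The 5 loci past the library test became 9 with total counts only, which shift the median log2 ratio of all genes to -0.30 and add Mir127, Mir411, Mir370 and Mir485. They became 3 with edgeR's exact test at a dispersion of 0.01 (Mir770, Mir433 and Mir376c) and 0 at the common dispersion, the latter chosen after seeing the data. The count was 6 with DESeq2 size factors, which add Mir411, 4 with both strands, where Mir541 was lost, 5 with no filter, and 5 with a filter of 10 CPM, where Mir540 passed as higher and Mir376c was not tested. Over all detected genes, calls lower in replicate 2 were 50% of calls with TMM, 58.6% with DESeq2 size factors and 76.5% with total counts. With total counts the log2 ratio changed sign for Mir134 (-0.20), Mir154 (-0.14), Mir379 (-0.13), Mir409 (-0.14) and Mir434 (-0.28), and with DESeq2 size factors for Mir434 (-0.065). None of these 5 loci passed the test in those settings.

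The limit that 0 reads set was 2.59 CPM for replicate 1 and 2.51 for the other library, so absence cannot be read from the 13 loci without reads. No paired analysis was possible because there was 1 group.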

Other observations

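Across the 59 loci, Spearman's rho of the mean CPM was -0.08 with the GC content of the hairpin, -0.14 with its length and -0.01 with its position, given as descriptions since the loci share libraries. The hairpins of the proximal group had a median GC content of 55.8% and a median length of 90 bases, and those of the distal group 43.6% and 79 bases. Of the 106 mature sequences, 42.5% began with U, beside 41.0% of 1570 mature sequences of genes outside the 59. Their 97 different seeds included 9 shared by 2 or more loci of the array. Of the seeds, 14 also occurred in mature RNAs of genes outside the 59. These include miR-299b-3p, from the minus strand of the same region, and miR-1906 from another gene.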
